A study of Mus musculus with 24 samples.

Results

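Genes of lymphatic endothelium and its growth factors were followed in embryonic mouse lung and small intestine, 6 in all. They are the growth factor genes Vegfc and Vegfd, the receptor gene Flt4, the transcription factor gene Prox1, and Lyve1 and Mmrn1, which mark lymphatic endothelial cells. They were picked by name, 6 of the 55536 genes in the deposited table, and all 6 passed the filter on low values in every comparison. Mmrn1 and Vegfd had been seen to change in Ift88 mutants, so the values of all 6 in the comparisons of Ift88 mutants with controls are described here without a test.

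Lymphatic vessels arise in the embryo when some endothelial cells of the large veins switch on Prox1 and leave the veins toward a source of VEGF-C. VEGF-C and VEGF-D are secreted as long precursors that proteases trim, and the trimmed forms bind VEGFR-3, the tyrosine kinase encoded by Flt4. In mice Vegfc is required for the first lymphatic sprouts, whereas mice without Vegfd form a lymphatic system. None of the 6 genes is confined to lymphatic cells: Flt4 is also made by blood endothelium of young embryos, Lyve1 by fetal macrophages, Mmrn1 by platelets and their precursors, and Prox1 by cells of the developing pancreas, liver and nervous system.

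Total RNA of whole lung and small intestine from E11.5 embryos was sequenced in 24 libraries, 4 for each of 3 genotypes in both organs. Controls were ShhCre Cenpj+/lox, Cenpj mutants ShhCre Cenpj-/lox (centriole-disrupted) and Ift88 mutants ShhCre Ift88-/lox (cilia-disrupted). Cre was driven by Shh, a gene of the lung and gut epithelium that endothelial cells do not use, and each control also carried 1 conditional Cenpj allele. Outside the epithelium the mutants were thus heterozygous for Cenpj or Ift88, the Ift88 mutants had Cenpj controls, and the labels do not say that replicates were separate animals, so p-values measure only the spread between these libraries.

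The libraries held 96.1 to 120.9 M recovered reads and 21994 to 26529 detected genes. Ribosomal RNA took over 2000 reads per M reads in 10 of them, namely all 8 Cenpj mutants, control lung 3 and control intestine 2, and in none of the Ift88 mutants. Control lung 1 and control intestine 1 were male by Xist and Ddx3y, Cenpj mutant intestine 1 held both kinds of transcript and the other 21 libraries were female. The targeted transcripts were lower in their own mutants without passing the test, Cenpj by -0.39 in lung (adjusted p = 0.339, limma) and -0.44 in intestine (0.878), and Ift88 by -0.42 (0.166) and -0.38 (0.155) on the log2 scale. These tissues are mixtures, in which fewer cells of a type and less RNA per cell cannot be told apart.

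Most of the genes listed as lymphatic were read in both organs, though in whole organs these reads need not come from lymphatic cells. Of 29 further lymphatic endothelial genes, 28 passed the filter, among them Pdpn at 2427 ± 306 normalized counts (SD, n = 4) in control lung and 2124 ± 200 in control intestine. The filter asks only for a mean of 1, and some that passed were low. Ackr2 was at 11.4 ± 13.6 and Fabp4 at 93.6 ± 47.5 in control lung. Others were far higher there, with Nr2f2 at 30151 ± 2790 and Gja1 at 19661 ± 2753, against 964.7 ± 273.5 for Prox1. Tek and Tie1 are also among the pan-endothelial markers used below, and Maf among the macrophage markers. The chemokine gene Ccl21a, a marker of mature lymphatic vessels, was at 0 in all 6 groups. Per kb of exon, control lung held 892.5 ± 178.3 normalized counts of Mmrn1, 778.9 ± 196.9 of Flt4 and 535.9 ± 34.2 of Vegfc. Below these on the same scale lay Lyve1 at 218.6 ± 139.4, Prox1 at 115.0 ± 32.6 and Vegfd at 107.5 ± 70.6. Mmrn1 and Flt4 did not differ beyond their spread in that order, and neither did Lyve1, Prox1 and Vegfd. In control intestine the same scale gave Vegfc 507.4 ± 95.1, Flt4 488.7 ± 16.4, Mmrn1 318.6 ± 67.1, Prox1 166.5 ± 115.3, Lyve1 103.7 ± 21.3 and Vegfd 24.8 ± 7.4. Vegfc and Flt4 lay together at the top there, Mmrn1 stood below them, Prox1 and Lyve1 did not differ beyond their spread, and Vegfd was lowest.

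The promoters of the 2 ligand genes and of Mmrn1 are shown because Vegfd and Mmrn1 are the genes that differed between groups when the set was chosen, and Vegfc is the ligand to set beside Vegfd. Each line gives the 250 bases before the RefSeq start in GRCm38.p6, on the plus strand for all 3 genes, with motif matches in capitals.
Vegfc, chr8:54077282-54077531: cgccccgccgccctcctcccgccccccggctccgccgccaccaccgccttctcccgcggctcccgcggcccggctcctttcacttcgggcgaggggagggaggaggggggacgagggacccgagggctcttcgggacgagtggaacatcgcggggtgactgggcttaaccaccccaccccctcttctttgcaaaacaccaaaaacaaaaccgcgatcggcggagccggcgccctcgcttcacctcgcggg
Vegfd, chrX:164373272-164373521: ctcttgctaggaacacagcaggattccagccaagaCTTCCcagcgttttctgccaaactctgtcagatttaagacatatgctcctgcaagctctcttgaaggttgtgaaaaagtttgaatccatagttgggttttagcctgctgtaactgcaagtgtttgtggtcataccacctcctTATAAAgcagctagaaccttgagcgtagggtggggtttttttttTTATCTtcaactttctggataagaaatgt
Mmrn1, chr6:60944067-60944316: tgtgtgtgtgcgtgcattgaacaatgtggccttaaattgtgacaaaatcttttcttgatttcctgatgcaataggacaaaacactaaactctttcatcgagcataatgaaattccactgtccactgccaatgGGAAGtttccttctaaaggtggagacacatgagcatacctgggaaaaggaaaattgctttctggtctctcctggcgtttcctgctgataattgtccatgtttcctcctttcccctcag
Searched on both strands were the ETS core GGAAG, the GATA motif AGATAA, the nuclear receptor motif AGGTCA, the SOX motif ACAAAG and the TATA box TATAAA, none of which overlapped another in these windows. Among 32851 RefSeq promoters of this length, they occurred in 64.1%, 9.99%, 14.0%, 16.5% and 12.4%, in that order. The Vegfc window held none of the 5, was 71.6% G and C, and had 30 CG pairs, against medians of 52.4% and 6 over all promoters. The Vegfd window was 42.4% G and C with 2 CG pairs, and held 1 ETS core and 1 GATA motif on the reverse strand and 1 TATA box on the forward strand. The Mmrn1 window, also 42.4% G and C, had 3 CG pairs and 1 ETS core. It lies wholly within the gene's span in the deposited annotation, where Mmrn1 starts at 60924976. It is thus not the stretch before that start, and may not be the main promoter. The Vegfd window lies partly within its gene, which starts at 164373378 in that annotation. Its TATA box and GATA motif lie past that start and its ETS core before it. These matches describe letters and not binding. RefSeq entries were matched for 5 of the 6 genes.

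Vegfc (ENSMUSG00000031520, chromosome 8, 54077606 to 54187096, GRCm38) encodes the main ligand of VEGFR-3. Its normalized counts in control lungs 1 to 4 were 1425.4, 1243.2, 1326 and 1254.7. In Cenpj mutant lungs they were 1172.2, 1519.6, 1544 and 1322.8, and in Ift88 mutant lungs 1097.2, 1116.4, 1007.4 and 1501.5. The groups overlapped, with 3 Ift88 mutant lungs below every control and the other one above every control. Control intestines 1 to 4 held 1269.1, 1530.9, 1206.1 and 964 normalized counts of Vegfc. Cenpj mutant intestines held 1786.3, 1683, 1297.3 and 1016.5, and Ift88 mutant intestines 832.4, 712.8, 858.6 and 1002.4. Here 3 Ift88 mutants lay below every control, and control 4, the lowest of its group, lay within the Ift88 mutant range. Vegfc stood at nearly the same level in both control organs, with a log2 difference of lung minus intestine of 0.10 (95% interval -0.27 to 0.46, adjusted p = 0.898 in limma). In Cenpj mutants its log2 difference from control was 0.08 (-0.25 to 0.40, adjusted p = 0.891) in lung and 0.20 (-0.21 to 0.62, adjusted p = 0.906) in intestine.

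Vegfd (ENSMUSG00000031380, chromosome X, 164373378 to 164402650) encodes the second ligand of the receptor. Control lungs 1 to 4 had 256.7, 296, 35.7 and 447.1 normalized counts, and Cenpj mutant lungs 453.9, 415, 161.4 and 208.4. In the 4 Ift88 mutant lungs its normalized counts were 1054.7, 1250.1, 1481.2 and 1073.6. Every Ift88 mutant lung lay above every other lung, and control lung 3 stood far below the remaining controls. That control was ribosomal-rich and its value came from 31 reads, 0.861 times the read count that barely detected genes most often had in the same library. In control intestines Vegfd was at 64.2, 65, 34 and 75.5 normalized counts, and in Cenpj mutant intestines at 4.9, 108.9, 1.0 and 35.2. Ift88 mutant intestines had 64.5, 139.9, 184.8 and 132.2. There 3 Ift88 mutants exceeded every control and Cenpj mutants 1 and 3 were close to 0, the latter with a single read. Intestinal Vegfd rested on few molecules throughout, at 0.0625 to 10.8 times the usual read count of barely detected genes in each library. In Ift88 mutant lungs that figure was 42.7 to 77.8.

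The receptor gene Flt4 (ENSMUSG00000020357, chromosome 11, 49609263 to 49652739) had 6928.2, 4001.5, 7280.5 and 7438.8 normalized counts in control lungs 1 to 4. Cenpj mutant lungs had 6832.9, 5768.5, 4372.1 and 5162.9, and Ift88 mutant lungs 5339.8, 5435.8, 7389.5 and 7441.4. The lung groups overlapped, and control lung 2 was the lowest lung of all 12. In intestine the controls were close together at 4209.1, 3901.7, 4031.3 and 3948.6. Cenpj mutant intestines had 3602.9, 4609.9, 2955.3 and 3123.7 normalized counts of Flt4, and Ift88 mutant intestines 4642.3, 3502.6, 3571.8 and 4356.6. Both mutant groups reached above and below the controls. Flt4 differed from control by -0.19 in Cenpj mutant lung (95% interval -0.57 to 0.19, adjusted p = 0.708) and by -0.19 in Cenpj mutant intestine (-0.48 to 0.10, adjusted p = 0.906).

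Prox1 (ENSMUSG00000010175, chromosome 1, 190118035 to 190170714) encodes the homeodomain factor that gives lymphatic endothelial cells their identity. Its normalized counts were 1249.1, 591.1, 1012.9 and 1005.6 in control lungs and 477.8, 1019.9, 730.9 and 1112.6 in Cenpj mutant lungs. Ift88 mutant lungs had 627.1, 533.7, 848.2 and 939.7. The 3 lung groups overlapped, with means of 964.7 ± 273.5, 835.3 ± 288.5 and 737.2 ± 188.7 normalized counts (SD, n = 4). In control intestines Prox1 ran from 369.3 in replicate 4 through 1043.9 and 1505.1 in replicates 1 and 2 to 2668.3 in replicate 3. Cenpj mutant intestines had 1201.6, 1401, 2113.8 and 942.1, and Ift88 mutant intestines 772.6, 617.9, 702.5 and 774.3. All Ift88 mutants were below all Cenpj mutants and below controls 1 to 3, and above control 4. The highest control held 7.23 times the lowest, the widest spread of the 6 genes among control intestines.

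Prox1 in intestine moved with pancreatic genes, as the plot of Prox1 against Cpa1 and Pdx1 shows. Cpa1, a digestive enzyme gene of pancreatic progenitors, had 773.4, 530.8, 1207 and 39.2 normalized counts in control intestines 1 to 4. Pdx1, which marks pancreas and duodenum, had 475.6, 725.7, 1916.9 and 491.1. The control with the most Prox1 thus had the most of both, and the control with the least Prox1 had the least Cpa1. Over the 13 pancreatic markers the summed level ran from 2477.4 to 20097.1 in control, 8456.5 to 20053.7 in Cenpj mutant and 2684.4 to 4593.9 in Ift88 mutant intestines, where Neurod1, Ins1 and Ins2 were at 0. In the comparison of Ift88 mutant with control intestine 12 of the 13 were lower and 1 of these passed the test. In lung Pdx1, Ptf1a, Nkx2-2, Ins1 and Ins2 were at 0 in all 3 groups. Yet Prox1 correlated with the mean of the pancreatic list in both organs, at Pearson r 0.79 over 12 intestine and 0.70 over 12 lung libraries. In lung only 7 of the 13 passed the filter, so the lung value rests on the rest of the list. Among these Nkx6-1 was at 7400 ± 3474 normalized counts in control and 2351 ± 745 in Ift88 mutant lung. Cpa1 was at 26.25 ± 34.43 in control lung. Other lists also went with Prox1 in intestine. Neuron and neural crest markers gave -0.85 there and 0.68 in lung, and lung mesenchyme markers 0.72 and -0.09. The part of pancreatic tissue in the intestinal Prox1 values was not tested.

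**Figure D1:**
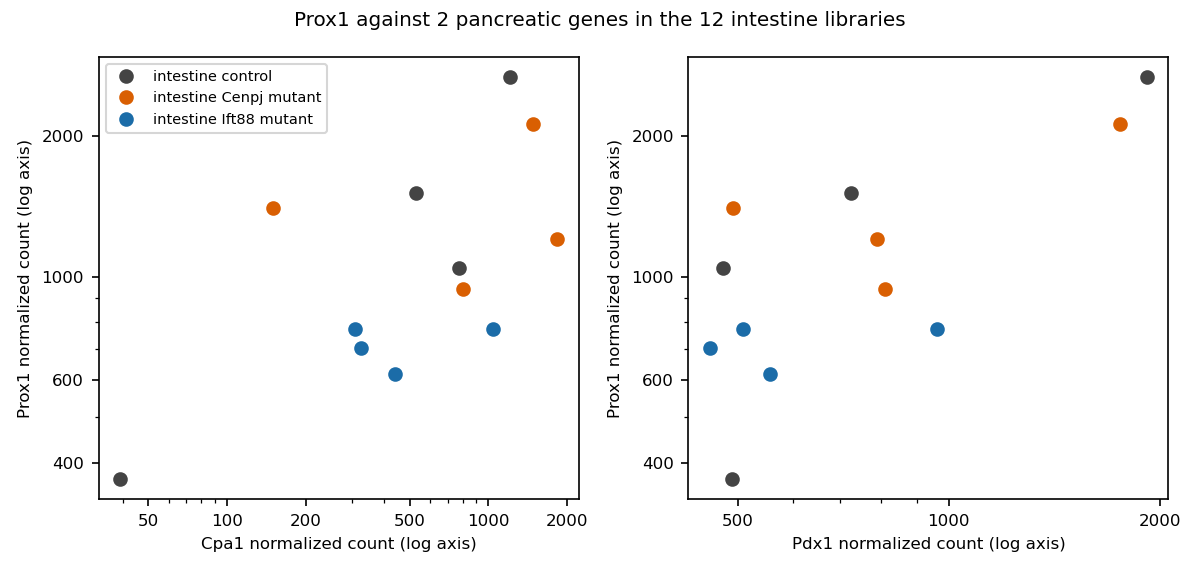
Prox1 normalized counts (vertical log axis) against those of Cpa1 and Pdx1 (horizontal log axes) in the 12 intestine libraries, 1 point per library coloured by genotype. Control 3 lies at the top right of both panels with 2668.3 normalized counts of Prox1, and control 4 lies lowest with 369.3.

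Lyve1 (ENSMUSG00000030787, chromosome 7, 110850607 to 110863239) encodes a hyaluronan receptor on the surface of lymphatic endothelial cells. Control lungs 1 to 4 had 791.6, 377, 245.2 and 1138.5 normalized counts, and Cenpj mutant lungs 2180, 1591.6, 418.2 and 908.6. Ift88 mutant lungs had 2631.9, 2551.7, 2260.8 and 2249.2, above all other lungs and within 1.17 times of each other. In control intestines the values were 365.1, 305.7, 322.3 and 217.4, and in Cenpj mutant intestines 268.9, 875.9, 517.2 and 451. Ift88 mutant intestines had 230.6, 519.3, 393 and 319.2 normalized counts of Lyve1. In intestine 3 Cenpj mutants and 2 Ift88 mutants exceeded every control, and the groups overlapped.

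Macrophage genes moved in the same direction as Lyve1 in lung. The summed level of 15 macrophage markers was 21114.8 to 38972.5 normalized counts in control, 23270.6 to 38654.9 in Cenpj mutant and 36667.7 to 41304.4 in Ift88 mutant lungs. In Ift88 mutant lung 14 of the 15 were higher and 1 passed, the complement gene C1qc at 0.78 (SE 0.18, adjusted p = 0.0440), with a list median of 0.59 against 0.00 over all genes tested. C1qc was 0.83 higher (adjusted p = 0.0463) in Cenpj mutant lung as well, where the list median was 0.64. Cd163 was at 0 in control and Ift88 mutant lungs. In intestine the macrophage sums were 17836.0 to 26338.3 in control, 17054.6 to 31495.8 in Cenpj mutant and 24075.3 to 30817.0 in Ift88 mutant libraries. The part of macrophages in the Lyve1 values was not tested.

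Mmrn1 (ENSMUSG00000054641, chromosome 6, 60924976 to 60989378) encodes multimerin 1, a large secreted adhesive protein of endothelium and platelets. Control lungs 1 to 4 held 6773.4, 4625.6, 4526 and 5024.8 normalized counts. Cenpj mutant lungs held 10982.9, 9664.8, 5614.6 and 7936, and Ift88 mutant lungs 8988.9, 9013.5, 7866.1 and 8921.9. All 4 Ift88 mutants and 3 of 4 Cenpj mutants exceeded every control lung. Control intestines held 2204.5, 2142.3, 1782.7 and 1349.4, and Cenpj mutant intestines 1110.7, 2243.6, 1933.4 and 1728.7. In Ift88 mutant intestines Mmrn1 was at 670.1, 1069.2, 1104.5 and 846.9 normalized counts. Each of these was below every other intestine library. The lowest of the 12 lung libraries, at 4526, was more than the highest of the 12 intestine libraries, at 2243.6.

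**Figure D2:**
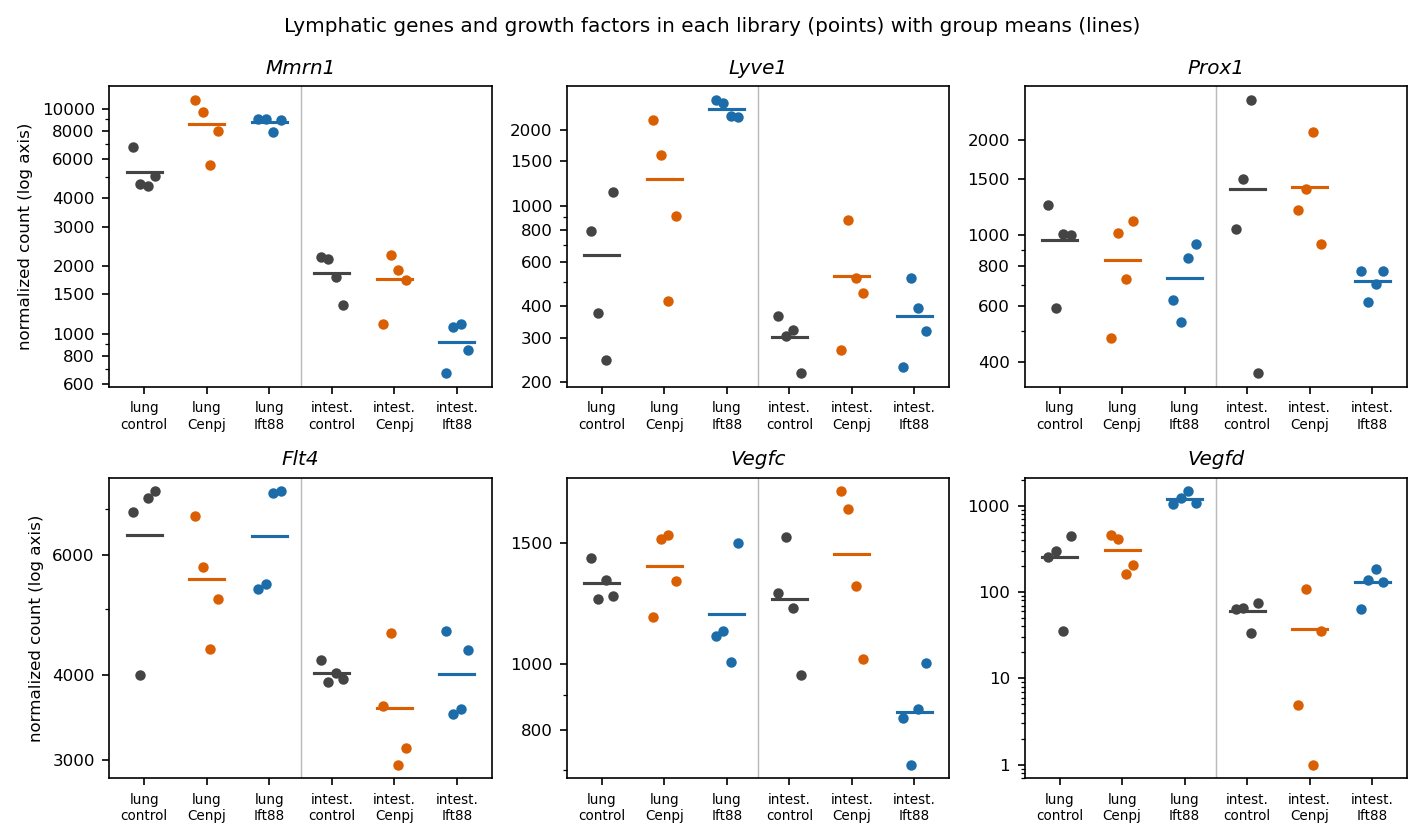
Normalized counts (vertical log axes, a different range per gene) of the 6 genes in each library, with points for replicates 1 to 4 from left to right in a group and lines for group means. Ift88 mutant lungs stand above all other lungs for Lyve1 and Vegfd and above all controls for Mmrn1, while Mmrn1 is lowest in Ift88 mutant intestines.

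Ift88 mutants were set against controls to ask how loss of epithelial cilia altered the organs. Mmrn1, Lyve1 and Vegfd were the genes of the 6 for which all 4 mutant lungs lay above all 4 controls, and 3.19% of the 31361 genes tested did the same. Since the choice of genes used this comparison, nothing is read from that share. The log2 difference in lung was 2.68 for Vegfd (SE 0.54, 6.39-fold), 2.17 for Lyve1 (SE 0.43, 4.49-fold) and 0.75 for Mmrn1 (SE 0.17, 1.68-fold). The size for Vegfd leans on control lung 3, the library with 31 reads of it: without that library the difference was 1.89, and edgeR on all libraries gave 2.23. Prox1 stood at -0.37 (SE 0.27), Vegfc at -0.17 (SE 0.16) and Flt4 at 0.02 (SE 0.18). The ligands thus had opposite signs, with Vegfc close to its standard error, the receptor gene was level, and Prox1 had the opposite sign to Lyve1 and Mmrn1.

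In Ift88 mutant intestine Mmrn1 was lower by -1.02 on the log2 scale (SE 0.22, 2.03-fold), and it was the single gene of the 6 with all 4 mutants below all 4 controls, as were 2.86% of the 31592 genes tested. Vegfc stood at -0.54 (SE 0.20), Prox1 at -0.64 (SE 0.40) and Flt4 at -0.01 (SE 0.14). Lyve1 was at 0.23 (SE 0.35) and Vegfd at 1.08 (SE 1.04). The difference between lung and intestine in this Ift88 contrast was 1.77 for Mmrn1 (SE 0.29), 1.93 for Lyve1 (SE 0.61) and 1.60 for Vegfd (SE 1.18) on the log2 scale. The last became 0.813 without control lung 3. It was 0.37 for Vegfc (SE 0.25), 0.27 for Prox1 (SE 0.54) and 0.03 for Flt4 (SE 0.25). Mmrn1 therefore lay above the controls in every Ift88 mutant lung and below them in every Ift88 mutant intestine, and the Vegfd mean was higher in both.

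**Figure D3:**
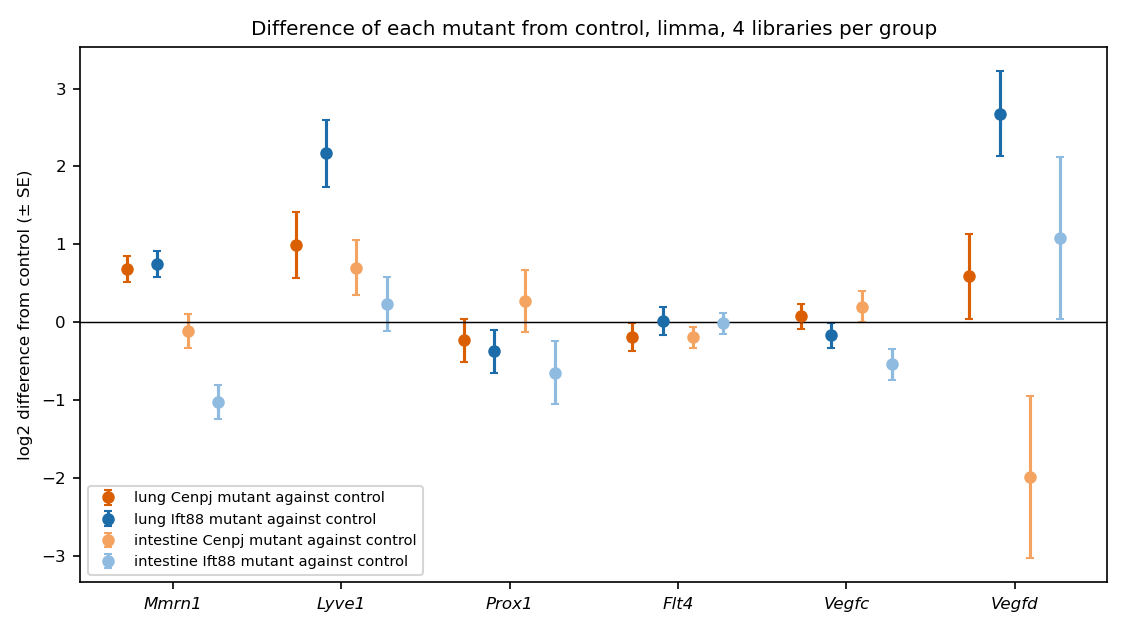
Log2 difference of each mutant group from the control group of its organ (vertical axis, points with ± SE, limma, 4 libraries per group) for the 6 genes. Vegfd and Lyve1 are highest in Ift88 mutant lung at 2.68 (1.89 without control lung 3) and 2.17, and Mmrn1 is at 0.75 in Ift88 mutant lung and -1.02 in Ift88 mutant intestine.

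Other cell types were read beside these values. Pan-endothelial markers, 26 in number, summed to 103417 to 154308 normalized counts in control and 105856 to 167387 in Ift88 mutant lungs, with 3 higher by the test and none lower. These were the adhesion genes Pecam1 (0.71, adjusted p = 0.0196) and Esam (0.73, adjusted p = 0.0452) and the secreted factor gene Egfl7 (0.46, adjusted p = 0.0292). In intestine the same sums were 97087.3 to 123819 in control and 81148.4 to 114443 in Ift88 mutant libraries, with 23 of 26 lower and none past the test. Taken per 1000 counts of these markers, Mmrn1 averaged 41.8 ± 7.9 in control and 67.3 ± 12.2 in Ift88 mutant lung (SD, n = 4). The matching values in intestine were 16.3 ± 1.8 and 10.1 ± 2.7. On the same scale Vegfd averaged 2.27 ± 1.74 and 9.68 ± 3.53 in lung, and Lyve1 5.35 ± 4.03 and 18.9 ± 4.1. These group means differed in the same direction as the normalized counts. Over the 12 lung libraries the mean of these markers correlated with Mmrn1 at Pearson r 0.545, with Lyve1 at 0.335 and with Vegfd at 0.045. Other lists gave higher values in lung. Macrophage markers gave 0.779 with Mmrn1 and 0.723 with Vegfd, and lung mesenchyme markers gave 0.837 with Vegfd. In intestine the same pairs gave -0.273, -0.419 and -0.371. The part of endothelial content and of these other cell types in the Mmrn1, Lyve1 and Vegfd differences was not tested.

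Megakaryocyte and platelet markers had the opposite sign to Mmrn1 in Ift88 mutant lung and the same sign as Mmrn1 in Ift88 mutant intestine. Their 18-gene sum was 10307.7 to 21018.5 normalized counts in control and 8329.1 to 10422.2 in Ift88 mutant lungs, where 17 of 17 genes tested were lower, none passed, the median was -0.76, and Gp1bb was at 0 in both groups. In intestine the sum was 7141.1 to 15777.9 in control and 5550.5 to 7784.4 in Ift88 mutant libraries. There 16 of 18 genes were lower, none passed, and the median was -0.65 against 0.06 over all genes tested. The part of platelets in the intestinal Mmrn1 difference was not tested. Erythroid markers passed the test as lower in 7 of 14 genes in Ift88 mutant lung and in 3 of 14 in Ift88 mutant intestine. By sign 13 of 14 were lower in lung (median -1.74) and 10 of 14 in intestine (median -0.80). Lung mesenchyme markers summed to 225805 to 421038 in control and 309599 to 402085 in Ift88 mutant lungs, with the signalling gene Wnt2 higher by 0.82 (adjusted p = 0.0369) and 9 of 10 not past the test. The part of mesenchyme in the Vegfd values was not tested.

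Neuron and neural crest markers had opposite signs in the organs, each the reverse of Mmrn1. In Ift88 mutant lung 10 of 12 were lower, with a median of -0.62, and 1 passed, the neural crest factor gene Foxd3 (-2.49, SE 0.48, adjusted p = 0.0148). In Ift88 mutant intestine 11 of 12 were higher, with a median of 0.79, and 2 passed, the neuronal genes Stmn2 (1.95, SE 0.38, adjusted p = 0.0299) and Stmn3 (2.07, SE 0.43, adjusted p = 0.0382). Their sum was 13860.9 to 26921.3 normalized counts in control and 16509.5 to 20760.8 in Ift88 mutant lungs, and 22971.1 to 70931.6 in control and 57471.1 to 74912.8 in Ift88 mutant intestines, so the sums overlapped in both organs. None of the 12 was at 0 in any of these groups. The part of nervous tissue in the Mmrn1 and Prox1 values was not tested.

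**Figure D4:**
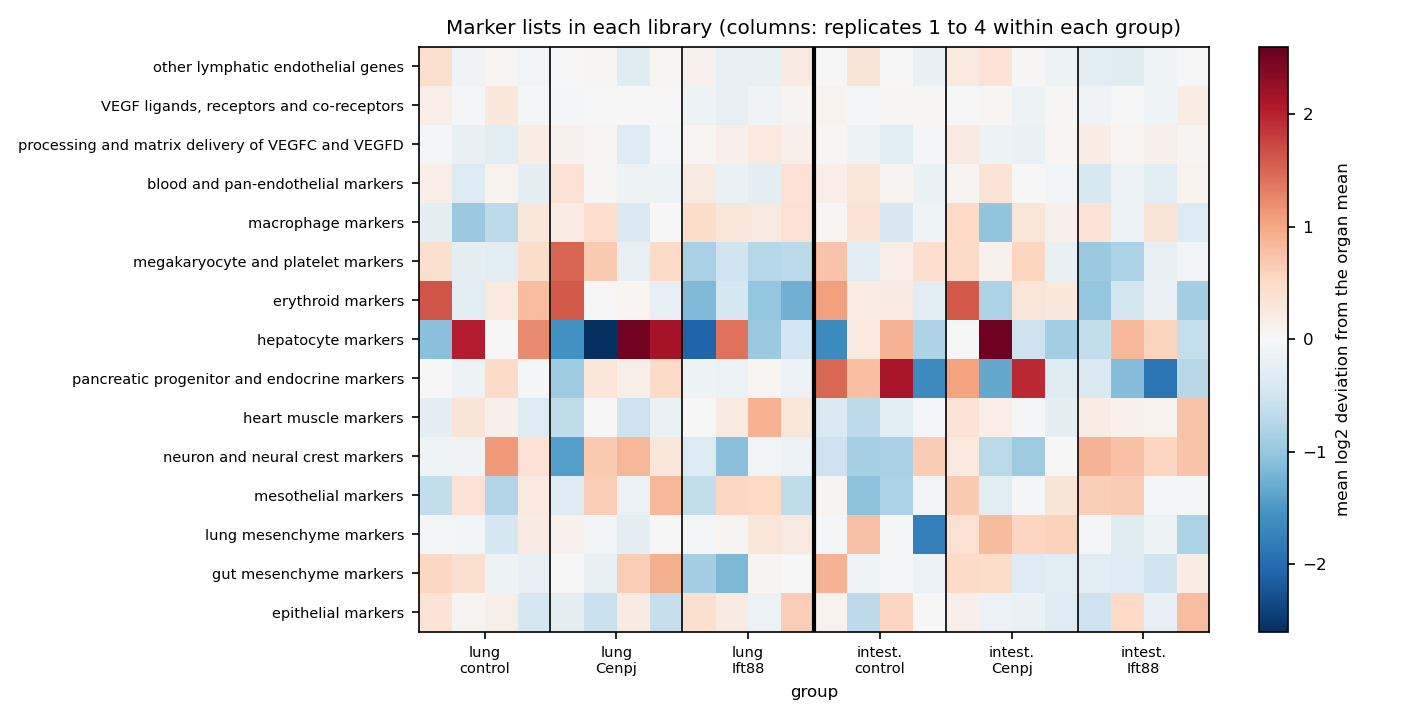
Mean log2 deviation of each marker list from the mean of its organ (colour, red higher and blue lower) in each of the 24 libraries, in columns of replicates 1 to 4 within a group. Macrophage markers are on the higher side and megakaryocyte and erythroid markers on the lower side in the 4 Ift88 mutant lungs, while pancreatic markers vary widely among the intestines.

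The further pathway genes that passed the test in Ift88 mutant lung were all lower there. Of 28 other lymphatic endothelial genes tested 2 fell and none rose. Foxc2, a forkhead factor of lymphatic valves that is also made by mesenchyme, fell from 2073 ± 492 to 399 ± 127 normalized counts (-2.40, SE 0.29, adjusted p = 0.000826). Efnb2, an ephrin gene of arteries and lymphatic valves, fell from 14468 ± 3275 to 7720 ± 1093 (-0.88, adjusted p = 0.00504). Of 9 other VEGF ligands, receptors and co-receptors 1 fell, the VEGF-C co-receptor gene Nrp2 (-0.62, SE 0.15, adjusted p = 0.0477), and 8 did not pass. The list medians were -0.11 and -0.31 against 0.00 over all 31361 genes, of which 1.07% were called. None of the 14 genes listed for processing and matrix delivery of VEGF-C and VEGF-D passed in this comparison.

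In Ift88 mutant intestine 0.719% of the genes tested were called. Among the 28 lymphatic genes the connexin gene Gja1 fell (-0.48, SE 0.10, adjusted p = 0.0382) and 27 did not pass. Of the processing and matrix genes Efemp1, a fibulin gene, rose from 231.8 ± 55.0 to 797.7 ± 143.6 normalized counts (1.79, SE 0.35, adjusted p = 0.0296) and 13 did not pass. None of the 9 other VEGF genes passed, with Nrp2 at 41917 ± 15940 in control and 41934 ± 9959 in mutant intestine.

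Cenpj mutants were set against controls to ask how loss of epithelial centrioles altered the organs. They share the control libraries with the Ift88 comparisons, in which Mmrn1 and Vegfd had been seen to change. The p-values and FDR of Mmrn1 and Vegfd against these controls, in any setting, are therefore not independent of that choice. None of the 6 genes passed the test in lung, where 0.513% of all genes did. Mmrn1 came closest, at a log2 difference of 0.68 (SE 0.17, 95% interval 0.34 to 1.03, 1.61-fold, adjusted p = 0.0715). Its call turned on single libraries and on the tool, with an adjusted p of 0.0432 without control lung 1, 0.00846 without Cenpj mutant lung 3, 0.0429 in edgeR and 0.00386 in DESeq2. The authors' deposited table gives a fold of 1.63 and an FDR of 0.0261 for it. Per 1000 endothelial marker counts Mmrn1 averaged 61.3 ± 10.7 in Cenpj mutant lung. Megakaryocyte and platelet markers had the same sign as Mmrn1 in this comparison: 16 of 17 were higher, none passed, and the median was 0.60 against 0.00 over all genes. They summed to 10307.7 to 21018.5 normalized counts in control and 13611.7 to 39564.1 in Cenpj mutant lungs, with Gp1bb at 0 in both. The part of platelets in this Mmrn1 difference was not tested.

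Lyve1 stood at 0.99 in Cenpj mutant lung (SE 0.43, 95% interval 0.10 to 1.89, adjusted p = 0.367) and Prox1 at -0.23 (SE 0.27, adjusted p = 0.764). Vegfd was at 0.59 (SE 0.54, 95% interval -0.55 to 1.73, adjusted p = 0.704). Without control lung 3, the library with 31 reads of Vegfd, this became -0.20 (adjusted p = 0.865), while a term for ribosomal-rich libraries, which leaves that control as the only one of its kind, gave 2.95 (adjusted p = 0.0167). Of the 3 pathway lists 1 gene passed: Ctsd, a lysosomal protease that can trim both ligands, rose by 0.45 (SE 0.10, adjusted p = 0.0495). The other lymphatic and VEGF lists had none past the test, with medians of -0.09 and -0.10 against 0.00 over all genes. Ribosomal-rich libraries made up all of the Cenpj mutants and 1 of 4 control lungs, so genotype and library kind cannot be told apart well here.

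In Cenpj mutant intestine limma called none of 31592 genes (0% of those tested), with 1616 below 0.05 before adjustment, while DESeq2 called 54 and edgeR 0. Mmrn1 was at -0.11 (95% interval -0.58 to 0.35), Lyve1 at 0.70 (-0.03 to 1.43) and Prox1 at 0.28 (-0.56 to 1.12) on the log2 scale. Vegfd was at -1.98 (-4.17 to 0.20), on very few reads. Without Cenpj mutant intestine 3, the library with 1 read, it was at -1.02, without Cenpj mutant intestine 2 at -2.95, and edgeR gave -0.68. The authors' deposited table gives a fold of 0.626 and no FDR for it. The limma adjusted p-values of these 4 genes ran from 0.906 to 0.970. The tested difference of the Cenpj effect between lung and intestine was 0.79 for Mmrn1 (SE 0.29, adjusted p = 0.932) and 2.57 for Vegfd (SE 1.18, adjusted p = 0.932), the latter at 0.944 in edgeR, 1.61 without Cenpj mutant intestine 3 and 1.79 without control lung 3. For that difference limma called 0 of 32098 genes (0%), with 1528 below 0.05 before adjustment, while DESeq2 called 44 and edgeR 0.

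Organs were compared within a genotype to see where each gene was made more, in fits that did not pair libraries. Between control lung and control intestine 2 of the 6 genes passed, both higher in lung, while 2.6% of all genes passed as higher in lung and 5.33% in either direction. Mmrn1 averaged 5237 ± 1046 normalized counts in lung and 1870 ± 394 in intestine (1.49, SE 0.21, 2.81-fold, adjusted p = 1.28e-05), with all 4 lungs above all 4 intestines, as for 3.47% of genes. Flt4 averaged 6412 ± 1621 and 4023 ± 135 (0.63, SE 0.17, 1.55-fold, adjusted p = 0.0276), and control lung 2 lay among the intestines. The Flt4 call was lost when control lung 1, 3 or 4 or control intestine 2, 3 or 4 was left out, with adjusted p up to 0.112, and relative to endothelial markers (0.39, adjusted p = 0.313). Vegfd was at 1.69 (SE 0.83, 95% interval -0.02 to 3.40, adjusted p = 0.351; 2.48 without control lung 3), Lyve1 at 0.85 (SE 0.43, -0.03 to 1.73, adjusted p = 0.367) and Prox1 at -0.26 (SE 0.38, adjusted p = 0.846).

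The Cenpj mutants allowed the same comparison in libraries that the choice of genes did not use. Of the 6 genes 3 passed, all higher in lung, against 2.53% of all genes as higher in lung and 6.51% in either direction. Mmrn1 averaged 8550 ± 2321 normalized counts in lung and 1754 ± 478 in intestine (2.29, SE 0.21, 4.88-fold, adjusted p = 1.47e-08). Vegfd averaged 309.7 ± 146.2 and 37.5 ± 49.99 (4.27, SE 0.83, adjusted p = 0.00103), a size that rests on the intestine libraries with 1 and 5 reads and ran from 3.05 to 4.55 over the alternatives that kept every library. Without Cenpj mutant intestine 3 it was 3.31, and without Cenpj mutant intestine 2 it was 5.23. The authors' deposited table gives Vegfd an intestine-to-lung fold of 0.121 and no FDR. For both genes all 4 lungs were above all 4 intestines, as for 4.99% of genes. Flt4 averaged 5534 ± 1038 and 3573 ± 744 (0.63, SE 0.17, 1.55-fold, adjusted p = 0.0230), with Cenpj mutant lung 3 below Cenpj mutant intestine 2. Leaving out Cenpj mutant lung 1 or 2 or Cenpj mutant intestine 3 or 4 ended the Flt4 call, with adjusted p up to 0.105, as did reading it against endothelial markers (0.29, adjusted p = 0.372).

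Lyve1 was at 1.14 in that comparison (SE 0.43, adjusted p = 0.128), and passed without Cenpj mutant lung 3 (1.60, adjusted p = 0.0153) and in DESeq2 (1.27, adjusted p = 0.0316). The authors' deposited table gives Lyve1 an intestine-to-lung fold of 0.414 with an FDR of 0.0342. Prox1 was at -0.77 (SE 0.38, 95% interval -1.55 to 0.01, adjusted p = 0.301). Vegfc was level at -0.03 (SE 0.18, -0.39 to 0.33). Megakaryocyte markers were higher in Cenpj mutant lung in 8 of 18 genes tested, led by Ppbp at 2.31 and Pf4 at 2.21, and pan-endothelial markers in 8 of 26. The part of platelets in the Mmrn1 difference was not tested, and per 1000 endothelial marker counts Mmrn1 was at 61.3 ± 10.7 in lung and 15.5 ± 4.1 in intestine.

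**Figure D5:**
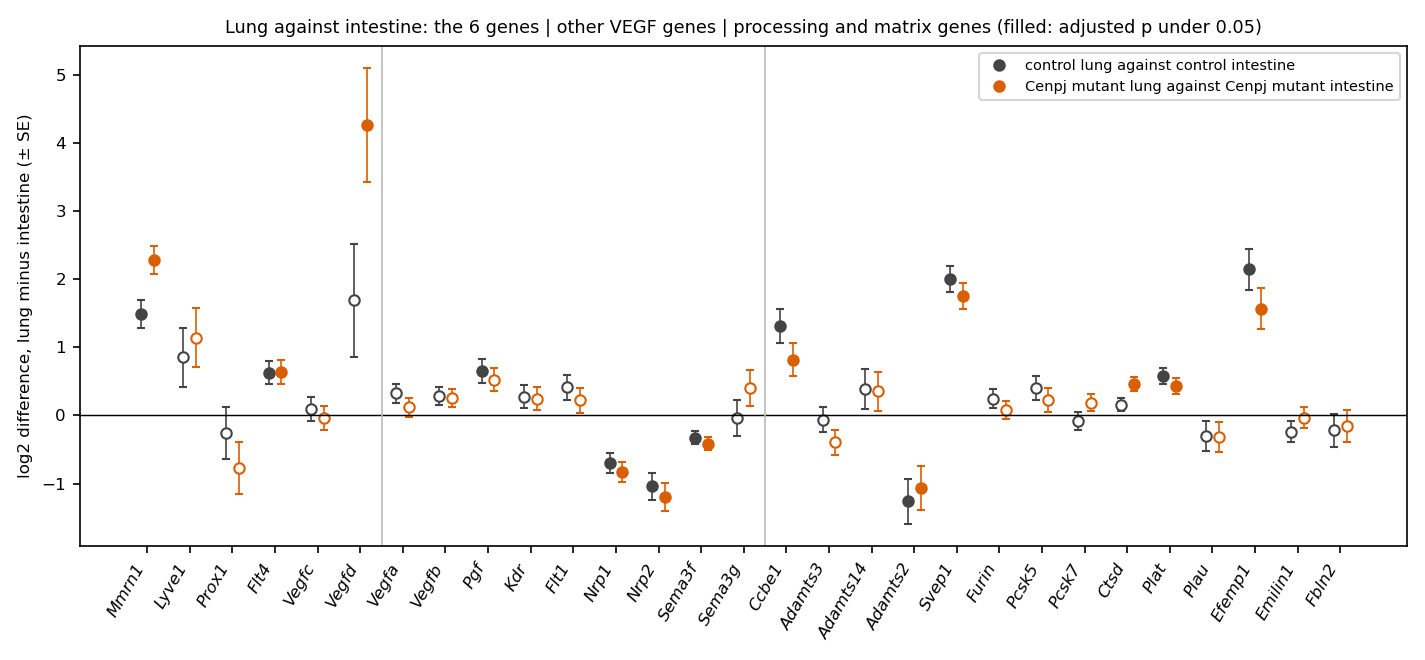
Log2 difference of lung minus intestine (vertical axis, ± SE, limma) in controls and in Cenpj mutants, with filled points for an adjusted p under 0.05. Shown are the 6 genes, the other VEGF genes and the genes listed for processing and matrix delivery of VEGF-C and VEGF-D. Mmrn1, Flt4, Ccbe1, Svep1, Efemp1 and Plat are filled above 0 in both genotypes, and Nrp1, Nrp2, Sema3f and Adamts2 are filled below 0 in both.

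Most genes listed for processing and matrix delivery of VEGF-C and VEGF-D did not pass between organs, and those that did were mostly higher in lung. In controls 4 of 14 processing and matrix genes were higher in lung, 1 (Adamts2) was lower and 9 did not pass. Svep1, a matrix protein gene needed for lymphatic remodelling, averaged 12078 ± 3370 normalized counts in lung and 3003 ± 795 in intestine (4.003-fold, adjusted p = 2.63e-08). Efemp1 averaged 1032 ± 216 and 232 ± 55 (log2 difference 2.15, SE 0.30). Ccbe1, the cofactor with which VEGF-C is cleaved, averaged 4114 ± 1906 and 1502 ± 146 (log2 difference 1.31, SE 0.25). Adamts3, the protease that works with Ccbe1, was at 1391 ± 141 and 1469 ± 286 and did not pass. In Cenpj mutants 5 of the 14 were higher in lung, 1 was lower and 8 did not pass. Svep1 was at 1.75 (adjusted p = 2.84e-07), Efemp1 at 1.57 (0.000836) and Ctsd at 0.46 (0.00311).

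Co-receptors went the other way. In controls Nrp2 averaged 19445 ± 2211 normalized counts in lung and 41917 ± 15940 in intestine (-1.04, SE 0.20, adjusted p = 0.00105). Nrp1, the co-receptor gene better known for VEGF-A and semaphorins, was at -0.69 (adjusted p = 0.00278) and Pgf, a ligand of VEGFR-1, at 0.66 (adjusted p = 0.0207). Of the 9 VEGF genes 1 was higher in lung and 3 were lower in controls, and 0 and 3 in Cenpj mutants, where Nrp2 was at -1.20 (adjusted p = 0.000197) and Nrp1 at -0.83 (adjusted p = 0.000346). Kdr, the VEGF-A receptor gene of all endothelium, was at 11511 ± 2612 and 9341 ± 1026 in control lung and intestine and did not pass.

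The 28 other lymphatic genes split in both directions. In controls 4 were higher in lung and 2 lower, with Tbx1 at 3.37 (SE 0.46, adjusted p = 8.50e-06), Efnb2 at -0.75 (adjusted p = 0.000916) and Stab2, a scavenger receptor gene shared with liver sinusoids, at -3.23 (adjusted p = 0.00833). In Cenpj mutants 4 were higher and 4 lower. Efnb2 was at -1.03 (adjusted p = 1.61e-05) and the lipid carrier gene Fabp4 at -4.34 (adjusted p = 0.00057). Tek, the angiopoietin receptor gene that is also on the pan-endothelial list, was at 1.01 (adjusted p = 0.000489). The size for Fabp4 is loose, since Cenpj mutant lungs 1 to 4 held only 20.7, 62.3, 0 and 56.3 normalized counts of it. The list medians were 0.19 in controls and 0.11 in Cenpj mutants, against 0.00 over all genes in both. Hepatocyte markers were at 411.5 to 5798.6 summed normalized counts in control lung and 5240.4 to 12540.1 in control intestine, and the part of liver in the Stab2 values was not tested.

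Among themselves the 6 genes did not move as 1 block. Over the 24 libraries, deviations from the group means went together most for Mmrn1 and Lyve1 (Pearson r 0.81), then for Lyve1 and Vegfd (0.59) and for Prox1 and Vegfc (0.45). Mmrn1 and Prox1 gave 0.23 and Mmrn1 and Flt4 0.18. These values describe libraries that share depth and tissue make-up, and carry no test. Genes most like each member were ranked among 13051 genes by the smaller of the Pearson correlations over the 12 lung and the 12 intestine libraries. By this measure Prox1 was most like Flrt2 (0.87) and Tnc (0.82), followed by Zfp629 (0.70) and Nell1 (0.68). Flt4 was most like Furin (0.76), Polrmt (0.75), Map7d1 (0.75) and Bag3 (0.74). Lyve1 was most like the endothelial genes Pecam1 (0.70) and Clec14a (0.69), and Slc25a44 (0.64) was also among its nearest 4. This measure misses links present in 1 organ only. Lyve1 correlated with the mean of the macrophage list at 0.912 in lung and -0.538 in intestine. With the pan-endothelial list it gave 0.335 in lung and 0.388 in intestine. For Mmrn1 the nearest were Snx24 (0.77), Gata5 (0.74), Adam12 (0.74) and Lbp (0.73). Vegfc was nearest to Specc1 (0.83), Twist2 (0.77), Actr2 (0.76) and Phf23 (0.76). The nearest to Vegfd were Izumo4 (0.78), Slc25a28 (0.76), Rab40b (0.73) and Stk19 (0.72). None of the 6 was among the 4 genes nearest to another.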

How the data were processed

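The deposited table held 1 column of normalized counts for each of the 24 libraries. Per the file headers and the values, this signal came from whole reads that the authors scaled with a size factor for each library and gave to 1 decimal. The deposited ratio columns hold the authors' linear fold changes between group means, and the deposited p-value columns their raw p and FDR. Tools named in the submitters' processing notes are DESeq2 1.16.1 and STAR 2.5.2b, with the build GRCm38. How reads were counted, with which annotation and on which strand, is not given in the sources used here.

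The design named edgeR for counts and limma for normalized values, so limma-trend (3.58.1, R 4.3.3) was used on log2 of the value plus 1, keeping genes that averaged 1 or more, with Benjamini-Hochberg adjustment over all genes and a threshold of 0.05. Log2 differences and folds are on that scale, where the added 1 shrinks changes of low genes, while 1 very low library can carry a mean of logs past the ratio of group means, as for Vegfd. Comparisons within an organ used its 12 libraries, and comparisons between organs all 24. Intervals are at 95%. Whole reads were recovered from the steps of the values up to 500 within a tolerance of 0.051 (99.3% to 100% of values whole). The step was clear in 20 libraries and too near 1 to be told from rounding in 4. Genes at the edge of detection most often had 12 to 41 reads in a library, so counting error is larger than the totals imply. edgeR 4.0.16 and DESeq2 1.42.0 on these reads, pseudocounts of 0.1 and 10, no filter, a mean of 100 or more, other sets of libraries, terms for replicate, sex and library kind, scaling to endothelial markers and leaving out each library were alternatives. The limma script was tested on simulated data.

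The 6 genes and the 15 gene lists (203 of 204 symbols in the table) were chosen with earlier results of these data known. The text names the 6 genes, up to 3 listed genes per comparison with the smallest p past the threshold, otherwise those most expressed or defining another cell type, and the 4 genes most like each of the 6 among those with a mean of 100 or more in both organs; 1 of these is not reported here. A few values of processing genes, Pdpn, Kdr and Adamts3 were added for their roles. Correlations of same-numbered libraries' deviations were above 0.1 for each replicate number between control lung and control intestine (0.101 to 0.244). These libraries may thus be pairs, on the data and not the labels, but the main fits did not pair them. Replicate number as a block was an alternative, and it changed no call of the 6 genes between control organs. No other groups had correlations above 0.1 for all 4 numbers. Replicates correlated at 0.922 to 0.977. Exon lengths came from GENCODE M21, whose coordinates equal the deposited ones for all 6 genes, and promoters from RefSeq in GRCm38.p6.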

Additional observations from a re-analysis of the deposited data

Results flagged for a closer look

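Of 36 sets of 4 libraries, 1 for each gene and group, 2 held a library whose gap to its nearest neighbour took up most of the range, and chance gives about 1 in 20. Ift88 mutant lung 3 was the lowest of its group for Mmrn1 at 7866.1 normalized counts, 0.92 of the range away from the next, while the other 3 lay between 8921.9 and 9013.5. Control lung 2 was the lowest of its group for Flt4 at 4001.5, 0.851 of the range away, with the others at 6928.2 to 7438.8. The Ift88 effect on Mmrn1 differed between organs by 1.77 on the log2 scale, with every mutant lung above and every mutant intestine below the controls of its organ. That difference was not tested, since the gene was chosen for it.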

How the results depend on the processing

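Each of the 6 genes was refitted in 8 comparisons. For Mmrn1 in Cenpj mutant lung the log2 difference passed the threshold in edgeR with TMM (0.714), edgeR with DESeq2-type factors (0.7132), DESeq2 (0.7132) and with the replicate number as a block (0.6826, adjusted p = 0.0171), although the numbers do not pair these libraries. The block changed no other call of the 6 genes. DESeq2 also passed Lyve1 between Cenpj mutant organs (1.271) and Vegfd between control organs (2.118). With only the compared groups fitted, Flt4 between control organs missed the threshold (0.6304, adjusted p = 0.0596). A sex term turned Mmrn1 in Cenpj mutant intestine to 0.1803 and Vegfc between Cenpj mutant organs to 0.08233. A term for library kind within the organ gave Vegfd in Cenpj mutant lung 2.948, and in Cenpj mutant intestine turned Prox1 to -0.1534 and Vegfc to -0.1175. The same term over 24 libraries turned Vegfc in Cenpj mutant lung to -0.09288. Scaled to endothelial markers, Flt4 between organs missed the threshold in controls (0.3867) and in Cenpj mutants (0.2899). That scaling turned Vegfc to -0.04096 in Cenpj mutant lung and to -0.1475 between control organs, and moved Vegfc (-0.2794) and Flt4 (0.2449) in Ift88 mutant intestine. The Ift88 difference between organs moved with it to 1.398 for Mmrn1, -0.3377 for Flt4 and -0.002782 for Vegfc. The organ difference of the Cenpj effect on Flt4 turned to -0.03357 and -0.04127 in edgeR, -0.0413 in DESeq2 and -0.09682 with that scaling. The cause was not tested for any of these.

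Leaving out 1 library at a time, the ranges were 0.5475 to 0.8701 for Mmrn1 in Cenpj mutant lung, -0.2599 to 0.09232 for Mmrn1 in Cenpj mutant intestine and 0.8034 to 1.596 for Lyve1 between Cenpj mutant organs. For Prox1 they were -0.4491 to 0.01276 in Cenpj mutant lung, -0.2528 to 0.6971 in Cenpj mutant intestine and -0.7914 to 0.1585 between control organs. For Flt4 they were 0.5447 to 0.8428 between control organs and 0.5263 to 0.7639 between Cenpj mutant organs. Vegfc ran from -0.01954 to 0.2027 between control organs and from -0.1886 to 0.08233 between Cenpj mutant organs, and Vegfd from -0.198 to 1.005 in Cenpj mutant lung. The organ difference of the Cenpj effect ran from -0.08327 to 0.7449 for Lyve1, -0.9279 to 0.02203 for Prox1 and -0.2088 to 0.1335 for Flt4.

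Over the other settings the count of genes called was 7 to 754 in Cenpj mutant lung, 0 to 568 in Cenpj mutant intestine, 16 to 972 in Ift88 mutant lung and 31 to 1015 in Ift88 mutant intestine. It was 0 to 44 for the organ difference of the Cenpj effect and 2 to 194 for that of the Ift88 effect. Without 1 library these counts were 36 to 407, 0 to 37, 52 to 995, 25 to 1027, 0 throughout and 0 to 135. Low Vegfd values rest on few molecules, so its sizes are loose: in Cenpj mutant intestine the log2 difference ran from -2.249 to -0.6728 over settings with every library. The filter of 100 or more left out Vegfd in intestine.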

Other observations

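The summed level of the 14 processing and matrix genes was 67987.0 to 98469.9 normalized counts in control lung and 80853.9 to 94855.7 in Ift88 mutant lung, and 57191.0 to 73237.9 in control and 73138.1 to 81122.4 in Ift88 mutant intestine. Among lymphatic genes outside the 6, Stab2 was at 168.9 ± 91.2 normalized counts in control lung and 473.6 ± 186.4 in Ift88 mutant lung (SD, n = 4), and at 1431 ± 337 and 745.8 ± 178.7 in the matching intestines, differences that did not pass the test. Tbx1 was at 1448 ± 726 in control, 688.5 ± 284.3 in Cenpj mutant and 2651 ± 974 in Ift88 mutant lung, also without passing. These genes were picked here after their values were seen.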
